A study of Rattus norvegicus with 6 samples.

Results

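Genes of mitosis and chromosome segregation were followed in whole livers of rats with and without hepatic fibrosis. They were chosen by name, as 48 genes whose proteins start mitosis, build the spindle and the kinetochores, part the chromosomes or divide the cell. Of these, 47 were found under their symbols among the 19616 genes of the expression table. Ccnb2 was not, and only its promoter was analysed here. All 6 animals were male SD rats, and their age was not given in the sources used here. The FL group (rats FL2, FL5 and FL12) had been injected intraperitoneally with a mixture of equal parts of olive oil and carbon tetrachloride (CCl4), a solvent that injures hepatocytes. Each injection was 2 mL/kg, with 2 injections per week over 5 weeks. The CL group (rats CL5, CL6 and CL7) had received olive oil alone in an equal volume. Total RNA of the liver was depleted of ribosomal RNA and sequenced, with 1 library per rat. Expression is given as FPKM, a measure of the fragments of a gene scaled to transcript length and to library size. In bulk RNA of this kind, fewer cells of a type and less RNA per cell cannot be told apart.

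The labels were checked against defining genes. The plasma protein gene of hepatocytes, Alb, read between 31431 and 33392 FPKM in the CL group and between 24149 and 25209 FPKM in the FL group. Col1a1, which encodes a chain of type I collagen, read 2.12 FPKM in CL5, 3.77 in CL6 and 2.12 in CL7. It read 17.0 FPKM in FL2, 101 FPKM in FL5 and 73.7 FPKM in FL12, so that every FL rat was above every CL rat and FL2 was the lowest of its group. The number of reads per rat is not known. The step between low values of the U6 RNA genes put the depth relative to CL5 at 0.656 in CL6, 0.84 in CL7, 0.667 in FL2, 0.724 in FL5 and 0.677 in FL12.

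A cell enters mitosis when Cdk1 is activated by its cyclins, kinetochores then tie the centromeres to the microtubules of the spindle, and the spindle checkpoint delays anaphase until all chromosomes are attached. Most of these genes are transcribed late in the cell cycle under B-Myb and FoxM1 and are held down by the DREAM complex in resting cells. Adult hepatocytes seldom divide but re-enter the cycle after injury, and stellate cells and macrophages can divide in injured liver as well.

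The mitosis genes were high in FL5 and FL12 and close to the CL level in FL2. The mean of log2(FPKM + 0.1) over the 47 genes was -1.53 in CL5, -0.88 in CL6 and -1.32 in CL7. It was -0.92 in FL2, 0.83 in FL5 and 0.57 in FL12. FL2 thus lay between CL7 and CL6, and FL5 and FL12 lay above all CL rats. The group means were -1.24 ± 0.33 and 0.16 ± 0.94 (SD, n = 3 rats each), a difference of 1.40 on this log2 scale. The summed FPKM of the 47 genes told the same order, with 14.6, 26.3 and 17.3 in CL5, CL6 and CL7 and 24.8, 102 and 83.2 in FL2, FL5 and FL12. Over all genes tested, FL2 did not stand with the CL group. Its log2 values correlated with those of FL5 and FL12 at r = 0.959 and 0.950, and with those of the CL rats at r between 0.940 and 0.943, across genes, which are not independent replicates.

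Gene by gene, FL5 was above all 3 CL rats for 47 of the 47 genes, whereas 60.9% of all 14864 genes tested met this. FL12 was above all 3 CL rats for 46 genes (62.5% of all genes), Cenpk being level with CL6 at 0.42 FPKM. FL2 was above all 3 CL rats for 20 genes only (49.2% of all genes), lay within the CL range for 23 and below every CL rat for 4. The last 4 were Cdk1, Mad2l1, Kif18a and Cenpn, singled out after their values were seen. Relative to the CL mean of each gene, the median log2 difference over the 47 genes was 0.35 in FL2, 2.10 in FL5 and 1.81 in FL12, against 0.20, 0.33 and 0.35 over all genes tested. In FL2 these differences ran from -0.75 (Mad2l1) to 1.25 (Kif22), in FL5 from 0.46 (Mad2l1) to 3.55 (Cdkn3) and in FL12 from 0.69 (Cenpk) to 3.16 (Cdkn3). The highest of the 6 rats was FL5 for 38 genes and FL12 for 9. Among the controls, CL6 was the highest for 38 of the 47 genes. All 3 FL rats were above all 3 CL rats for 20 of 47 genes (42.6%), near the 35.7% of all genes. Without FL2 this count was 46 (49.8% of all genes), and without CL6 it was 34 (44.4% of all genes). FL2 was above both CL5 and CL7 for 34 genes (58.0% of all genes).

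**Figure D1:**
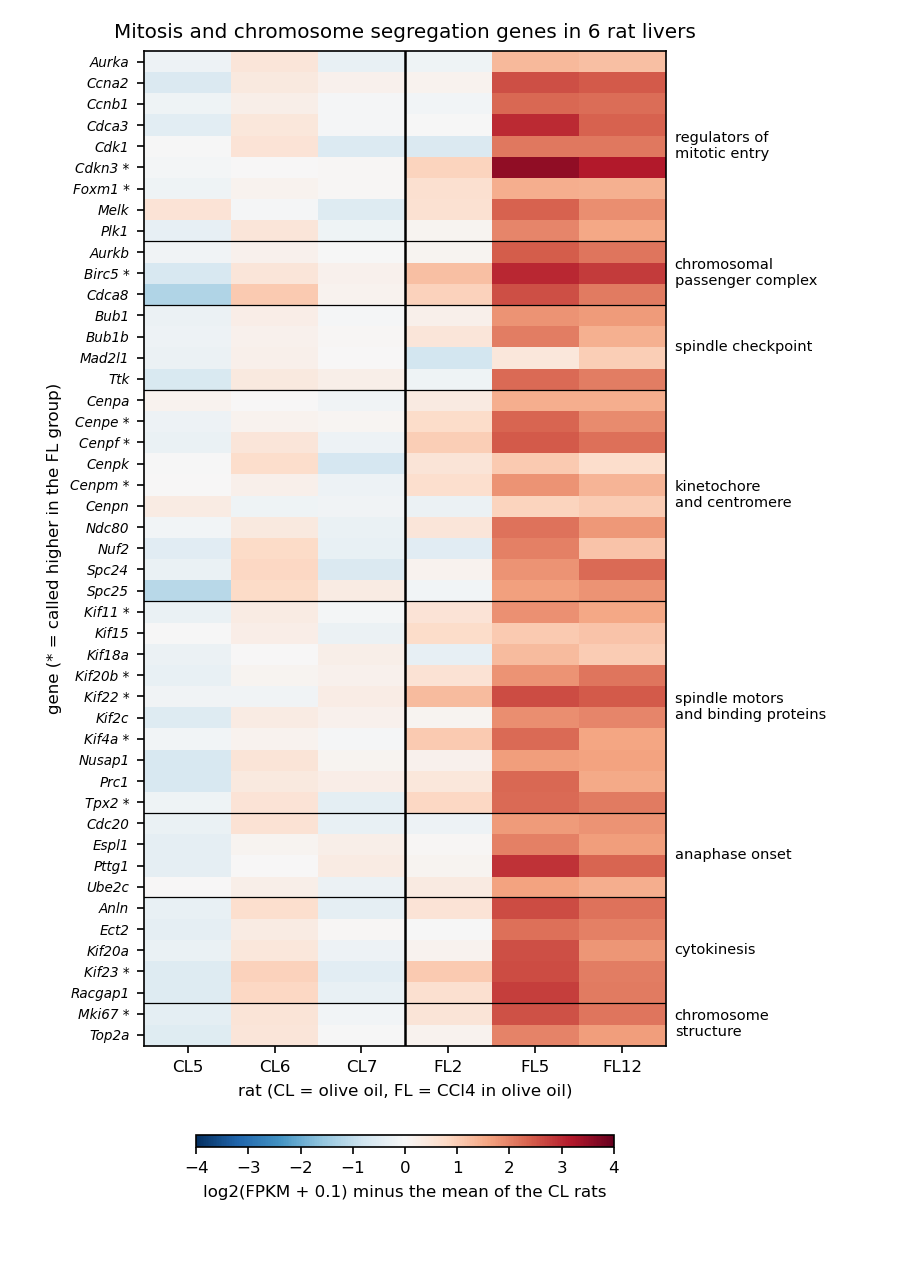
Heat map of the 47 mitosis and chromosome segregation genes (rows, grouped by role) in the 6 rats (columns), coloured by log2(FPKM + 0.1) minus the mean of the CL rats of that gene, with an asterisk on each of the 13 genes called higher in the FL group. FL5 and FL12 are red almost throughout, and FL2 is paler, within the CL range for 23 genes, above it for 20 and below it for 4, with its largest difference of 1.25 for Kif22.

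The groups were compared with limma on log2(FPKM + 0.1), a scale on which fold changes of weakly expressed genes come out too small. The mitosis genes are low in this tissue, with group means between 0.0633 and 1.45 FPKM in the CL group (median 0.34) and between 0.313 and 6.11 FPKM in the FL group (median 1.06). The median protein-coding gene had 1.60 and 2.26 FPKM. A gene was called where its fold change reached 2 and its adjusted p stayed under 0.05. In the FL group, 13 of the 47 genes were upregulated (27.7%), against 9.29% of all genes tested. They were Birc5, Cdkn3, Cenpe, Cenpf, Cenpm, Foxm1, Kif11, Kif20b, Kif22, Kif23, Kif4a, Mki67 and Tpx2. None was called lower, against 0.935% of all genes, and limma gave 0 genes with a lower level at an unadjusted p under 0.05 and 36 with a higher one, against 4.04% and 31.5% of all genes.

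The log2 difference was above 0 for 47 of 47 genes, against 11575 of all 14864 genes tested. For the 47 genes it ran from 0.24 (Mad2l1) to 2.54 (Cdkn3), with a median of 1.40. Over all genes the median was 0.29, and it moved to 0.08 with median scaling and to -0.04 with quantile normalization. With quantile normalization the difference turned to -0.32 for Mad2l1 and -0.03 for Cenpn, and the median of the 47 genes stood 0.89 above that of all genes. All 47 genes passed the filter at a mean of 0.1 FPKM. For Melk, Ube2c and Espl1 the CL mean was below 0.1 FPKM, so that they passed it through the FL group, and 0 of these 3 were called, whereas all 3 are among the calls without FL2. All 13 called genes had FL2 above every CL rat, as had 7 of the 34 that were not called. Over all 34, the adjusted p ran from 0.0604 to 0.714.

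The number of calls depended on single rats. Without FL2, 40 of the 47 genes were called higher (85.1%, against 12.3% of all genes), the 13 among them. Without CL6, 5 were called (Birc5, Cenpf, Kif22, Kif23 and Tpx2, against 6.7% of all genes). Kif22 was the 1 gene called without CL5 (6.25% of all genes), without CL7 (4.95%), without FL5 (5.06%) and without FL12 (6.5%). Kif22 was also the 1 gene called under quantile normalization (3.05% of all genes). Median scaling gave 7 calls (5.56%), no filter on low values 7 (6.32%), limma without trend 7 (8.83%) and a robust prior 12 (9.24%). A pseudocount of 1 gave 4 (3.11%), and one of 0.01 gave 13 (9.6%). With the filter raised to 1 FPKM, 14 genes remained and 6 were called (8.11%). For the counts by role that follow, the shares of all genes are these same ones, and 9.29% over all 6 rats.

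Among the 9 regulators of entry into mitosis, 2 were upregulated in the FL group, Cdkn3 and Foxm1. Cdkn3, a phosphatase that inactivates cyclin-dependent kinases, had the largest log2 difference of the 47 genes. It read 0.68 FPKM in CL5, 0.74 in CL6 and 0.76 in CL7, and 1.44 in FL2, 9.60 in FL5 and 7.30 FPKM in FL12. The groups did not overlap, and FL2 was nearer to the CL rats than to the other FL rats. The log2 difference was 2.54 (standard error 0.61, adjusted p = 0.0267). Foxm1, the transcription factor of the G2 and M phases, read 0.33, 0.43 and 0.40 FPKM among the CL rats and 0.65 in FL2, 1.23 in FL5 and 1.20 FPKM in FL12, again without overlap. Its log2 difference was 1.17 (standard error 0.30, adjusted p = 0.0324).

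Cdk1 and cyclin B1 (Ccnb1), the kinase and the cyclin that together start mitosis, were not called. Cdk1 read 0.57 FPKM in CL5, 0.88 in CL6 and 0.36 in CL7, and 0.35 in FL2, 2.78 in FL5 and 2.80 FPKM in FL12. FL2 was just under the lowest CL rat, and FL5 and FL12 were close to each other. For Cdk1 the log2 difference was 1.21 (standard error 0.70, adjusted p = 0.248). Ccnb1 read 0.33, 0.47 and 0.37 FPKM among the CL rats and 0.35 in FL2, 2.27 in FL5 and 2.19 FPKM in FL12, with FL2 inside the CL range. Its log2 difference was 1.47 (standard error 0.60, adjusted p = 0.125). Without FL2, the adjusted p was 0.00839 for Cdk1 and 0.00283 for Ccnb1, the lowest over all alternatives, whose highest were 0.533 and 0.324. Among the 9 regulators of entry into mitosis, the largest difference of a gene not called was that of Cdca3. Cdca3 is a trigger of the breakdown of the Cdk1 inhibitor Wee1. It read 0.40, 0.81 and 0.55 FPKM among the CL rats and 0.56 in FL2, 5.22 in FL5 and 3.31 FPKM in FL12. The log2 difference of Cdca3 was 1.78 (standard error 0.70, adjusted p = 0.110), and FL2 lay within the CL range. Cyclin A2 (Ccna2), the mitotic kinases Plk1 and Aurka and the kinase Melk had log2 differences between 0.77 (Aurka) and 1.72 (Ccna2). Without FL2 all 9 genes were called, and without any other rat Cdkn3 and Foxm1 both lost their call.

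The chromosomal passenger complex corrects wrong attachments at the centromere and later acts at the midbody. The 47 genes hold 3 of its subunits, of which Birc5 was upregulated. Its scaffold Incenp, in the list of other cycle-regulated mitosis genes below and singled out after its values were seen, was upregulated as well (log2 difference 1.24, standard error 0.26, adjusted p = 0.0182). Birc5 (survivin), which brings the complex to the centromere, read 0.20 FPKM in CL5, 0.55 in CL6 and 0.43 in CL7, and 0.99 in FL2, 3.70 in FL5 and 3.19 FPKM in FL12. Every FL rat was above every CL rat. The log2 difference was 2.35 (standard error 0.50, adjusted p = 0.0187). Cdca8 (borealin), its partner in that task, read 0.06, 0.66 and 0.30 FPKM among the CL rats and 0.59 in FL2, 2.09 in FL5 and 1.44 FPKM in FL12. The CL rats differed widely and FL2 lay under CL6, and the log2 difference of 1.86 (standard error 0.62, adjusted p = 0.0730) was not called. The kinase of the complex, Aurkb, read 0.10 to 0.15 FPKM in the CL group, 0.14 in FL2 and 1.10 and 0.89 in FL5 and FL12. Birc5 lost its call without CL5, CL7, FL5 or FL12 and had it without CL6, and all 3 of the 47 genes were called without FL2.

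The 4 genes of the spindle checkpoint, which senses kinetochores that are not attached, gave 0 calls in limma, and 2 had an unadjusted p under 0.05. Mad2l1, which blocks the activator of anaphase, read 0.62 FPKM in CL5, 0.87 in CL6 and 0.75 in CL7, and 0.40 in FL2, 1.06 in FL5 and 1.58 FPKM in FL12. FL2 was below all CL rats. The log2 difference of Mad2l1 was 0.24 (standard error 0.43, adjusted p = 0.714), the smallest of all 47 genes, and it was -0.14 without FL12. Ttk (Mps1), the kinase that starts checkpoint signalling, read 0.06, 0.22 and 0.19 FPKM among the CL rats and 0.12 in FL2, 1.08 in FL5 and 0.92 FPKM in FL12. FL2 lay within the CL range, and its log2 difference was 1.39 (standard error 0.66, adjusted p = 0.170). The kinases Bub1 and Bub1b had log2 differences of 1.23 and 1.32. Without FL2, 3 of the 4 were called, Mad2l1 being the exception.

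Of 10 genes of the kinetochore and centromere, 3 were upregulated. Cenpm, a subunit of the constitutive centromere network, read 0.91 FPKM in CL5, 1.06 in CL6 and 0.77 in CL7, and 1.50 in FL2, 3.40 in FL5 and 2.50 FPKM in FL12. Its log2 difference was 1.28 (standard error 0.30, adjusted p = 0.0240). Cenpf, a large protein of the outer kinetochore, read 0.12, 0.27 and 0.13 FPKM among the CL rats and 0.42 in FL2, 1.35 in FL5 and 1.13 FPKM in FL12, a log2 difference of 1.88 (standard error 0.45, adjusted p = 0.0264). Cenpe, a kinesin that moves chromosomes to the spindle equator, read 0.10, 0.15 and 0.14 FPKM among the CL rats. Cenpe read 0.28 in FL2, 1.04 in FL5 and 0.74 FPKM in FL12, a log2 difference of 1.64 (standard error 0.44, adjusted p = 0.0389). In all 3 genes the groups did not overlap and FL2 was the lowest FL rat.

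Ndc80 gives its name to the complex that holds the microtubule. It read 0.19 FPKM in CL5, 0.31 in CL6 and 0.16 in CL7, and 0.34 in FL2, 1.30 in FL5 and 0.94 FPKM in FL12. The groups did not overlap, and the log2 difference of 1.46 (standard error 0.46, adjusted p = 0.0604) missed the threshold by the least of the 34 genes not called. The other subunits of that complex, Nuf2, Spc24 and Spc25, had log2 differences of 0.90, 1.40 and 1.11, and each had FL2 within the CL range. Cenpa, the histone variant that marks the centromere, had one of 1.09, and the network subunits Cenpk and Cenpn had 0.76 and 0.55. Without FL2, 6 of the 10 genes were called. Cenpe and Cenpm lost their call without any other rat, and Cenpf without CL5, CL7, FL5 or FL12, so that 1 of the 10 was called without CL6.

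The spindle motors and binding proteins held 5 of the 13 calls among 10 genes, and FL2 was above all CL rats for 7 of the 10. Kif22, a kinesin that binds chromosome arms and pushes them outwards, read 0.25 FPKM in CL5, 0.25 in CL6 and 0.37 in CL7, and 0.82 in FL2, 2.24 in FL5 and 2.0 FPKM in FL12. Every FL rat was above every CL rat, FL2 included. The log2 difference of Kif22 was 2.10 (standard error 0.38, adjusted p = 0.0110), with an adjusted p of 0.00278 to 0.0452 over the 13 alternatives in which it was tested. Its mean was under 1 FPKM, so that the stricter filter left it out. Tpx2, which nucleates microtubules near chromosomes and activates Aurka, read 0.72, 1.25 and 0.60 FPKM among the CL rats and 1.53 in FL2, 4.33 in FL5 and 3.82 FPKM in FL12. For Tpx2 the log2 difference was 1.73 (standard error 0.41, adjusted p = 0.0264), and the groups did not overlap.

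Kif4a, a kinesin of chromosome arms and of the central spindle, read 0.12 FPKM in CL5, 0.16 in CL6 and 0.13 in CL7, and 0.39 in FL2, 1.04 in FL5 and 0.61 FPKM in FL12. Its log2 difference was 1.64 (standard error 0.38, adjusted p = 0.0234). Kif11 (Eg5), the motor that slides the spindle poles apart, read 0.44, 0.72 and 0.51 FPKM among the CL rats. Kif11 read 0.85 in FL2, 2.19 in FL5 and 1.79 FPKM in FL12, a log2 difference of 1.31 (standard error 0.36, adjusted p = 0.0400). In both genes FL2 was above every CL rat and the lowest FL rat. Kif20b, a motor at work late in mitosis, read 0.12, 0.19 and 0.20 FPKM among the CL rats and 0.30 in FL2, 0.83 in FL5 and 1.07 FPKM in FL12. For Kif20b the log2 difference was 1.50 (standard error 0.44, adjusted p = 0.0490), also without overlap. Prc1, the crosslinker of the central spindle, read 0.31, 0.73 and 0.66 FPKM among the CL rats and 0.77 in FL2, 3.06 in FL5 and 1.72 FPKM in FL12. FL2 exceeded CL6 by little, and the log2 difference of 1.42 (standard error 0.48, adjusted p = 0.0765) was not called. Kif2c, Kif15, Kif18a and Nusap1 had log2 differences of 1.32, 0.96, 0.65 and 1.16. Of the 10 genes, 8 were called without FL2 and 2 without CL6 (Kif22 and Tpx2), and Kif22 alone without CL5, CL7, FL5 or FL12.

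The 4 genes of anaphase onset gave 0 calls in limma, and 2 had an unadjusted p under 0.05. Cdc20, which activates the anaphase-promoting complex, read 1.13 FPKM in CL5, 2.11 in CL6 and 1.10 in CL7, and 1.18 in FL2, 4.78 in FL5 and 5.09 FPKM in FL12. FL2 was level with CL5 and CL7. For Cdc20 the log2 difference was 1.10 (standard error 0.53, adjusted p = 0.175). Pttg1 (securin), the inhibitor of separase that is destroyed at anaphase, read 0.15, 0.23 and 0.31 FPKM among the CL rats and 0.25 in FL2, 2.31 in FL5 and 1.53 FPKM in FL12. FL2 lay within the CL range, and the log2 difference of Pttg1 was 1.78 (standard error 0.66, adjusted p = 0.0974). Separase itself (Espl1), which cuts cohesin, and the ubiquitin-conjugating enzyme Ube2c had 1.25 and 1.15. Without FL2 all 4 genes were called, of which Ube2c and Espl1 passed the filter through the FL group only.

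Of the 5 genes of cytokinesis, Kif23 was upregulated. Kif23 is the motor subunit of centralspindlin, which recruits the contractile ring. It read 0.05 FPKM in CL5, 0.30 in CL6 and 0.06 in CL7, and 0.34 in FL2, 1.19 in FL5 and 0.78 FPKM in FL12. CL6 was close to FL2, though the groups did not overlap, and its log2 difference was 1.90 (standard error 0.53, adjusted p = 0.0441). Its partner Racgap1 read 0.12, 0.46 and 0.16 FPKM among the CL rats and 0.39 in FL2, 2.05 in FL5 and 1.25 FPKM in FL12. Here FL2 was under CL6, and the log2 difference of 1.82 (standard error 0.58, adjusted p = 0.0646) was not called. Kif20a, a kinesin that carries passenger proteins to the midzone, read 0.60, 1.04 and 0.63 FPKM among the CL rats and 0.83 in FL2, 4.85 in FL5 and 2.76 FPKM in FL12. For Kif20a the log2 difference was 1.50 (standard error 0.55, adjusted p = 0.0953), with FL2 again within the CL range. Anln (anillin) and Ect2, which build and place the ring, had log2 differences of 1.78 and 1.40. Kif23 lost its call without CL5, CL7, FL5 or FL12 and had it without CL6, and all 5 genes were called without FL2.

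Of the 2 genes of mitotic chromosome structure, Mki67 was upregulated. Mki67 encodes Ki-67, the coat of mitotic chromosomes that is used as a marker of dividing cells. It read 0.68 FPKM in CL5, 1.35 in CL6 and 0.85 in CL7, and 1.36 in FL2, 5.83 in FL5 and 4.43 FPKM in FL12. FL2 was above CL6 by 1 step of the last decimal. For Mki67 the log2 difference was 1.73 (standard error 0.50, adjusted p = 0.0478), and the call was lost without any rat other than FL2. Top2a, the enzyme that untangles sister chromatids, read 0.61, 1.31 and 0.89 FPKM among the CL rats and 0.99 in FL2, 3.85 in FL5 and 3.10 FPKM in FL12. FL2 lay within the CL range, and its log2 difference was 1.27 (standard error 0.48, adjusted p = 0.104). Both genes were called without FL2.

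The 47 genes lay on 16 chromosomes, so they were compared by their promoters rather than by position. The window of RefSeq (assembly GRCr8), from 250 bases before to 50 bases after the start of a gene, was matched by symbol for 42 of the 48 listed genes. Entries for Racgap1, Ccna2, Foxm1, Ube2c, Tpx2 and Aurkb were not used here. The cell cycle genes homology region (CHR) was searched as TTTGAA, and the CCAAT box as CCAAT, on both strands. CHR letters were found in 29 of the 42 genes (69.0%), against 19.4% of the 27457 genes with a window. CCAAT was found in 30 (71.4%), against 39.6% of all genes, and both motifs in 22 (52.4%), against 8.5%. Of the 37 CHR matches, 29 read along the strand of the gene and 8 along the other. Called genes held CHR letters in 9 of 11 and the others of the table in 19 of 30. Other cycle-regulated mitosis genes held them in 23 of 40 (57.5%), DNA replication genes in 2 of 24 (8.33%) and transport kinesins in 1 of 18 (5.56%). A match is a string of letters, and binding was not measured.

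In 11 genes, both motifs lay within the 100 bases before the start. Of these, 5 are shown to let the spacing of the motifs be seen, with matches on either strand in capitals (TTTGAA or TTCAAA, and CCAAT or ATTGG). For Top2a and Cdc20 the 100 bases end where the gene begins. For Cdk1 they were ended at the outermost start that RefSeq gives, 41 bases earlier. For Mki67 and Kif23 that start lies further upstream, by 254 and 1327 bases, so only 30 bases around the motifs are given.
Top2a, chr10:84473094-84473193, minus strand: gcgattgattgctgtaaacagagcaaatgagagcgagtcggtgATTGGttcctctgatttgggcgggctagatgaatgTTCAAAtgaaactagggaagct
Cdc20, chr5:137255800-137255899, minus strand: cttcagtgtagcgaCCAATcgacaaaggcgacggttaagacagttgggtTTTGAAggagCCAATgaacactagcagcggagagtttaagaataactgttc
Cdk1, chr20:19265193-19265251, plus strand: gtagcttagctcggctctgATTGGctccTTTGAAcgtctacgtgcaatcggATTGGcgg
Mki67, chr1:199952673-199952702, minus strand: gccgttttcgTTTGAATTGGgcgggcacgg
Kif23, chr8:71320650-71320679, minus strand: gtcgctgATTGGcctgTTTGAAatgcgccg
In the nearest pair of motifs, the CCAAT box stood 4 bases before the CHR in Cdk1 and Kif23, and the motifs shared 1 base in Mki67. The windows of Cdk1 and Mki67 held further matches of both motifs. Kif23 and Mki67 were called in the FL group, and the other 3 genes were not.

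Genes outside the 48 that work in the same process were compared by list. Of 45 other cycle-regulated mitosis genes, 10 were upregulated in the FL group, against 9.29% of all genes, and none was called lower (median log2 difference 1.14, against 0.29 over all genes). Of the 10, Cenph and Fam64a had a CL mean below 0.1 FPKM and passed the filter through the FL group. The lowest adjusted p was that of Gtse1, a microtubule-binding protein that restrains p53. It read 0.23 FPKM in CL5, 0.45 in CL6 and 0.21 in CL7, and 1.27 in FL2, 1.83 in FL5 and 1.96 FPKM in FL12, a log2 difference of 2.20 (standard error 0.31, adjusted p = 0.00499). Unlike most of the 47 genes, Gtse1 was in FL2 nearer to FL5 and FL12 than to the CL rats. Hmmr, a spindle assembly protein, read 0.28, 0.71 and 0.41 FPKM among the CL rats and 1.13 in FL2, 3.61 in FL5 and 3.15 FPKM in FL12 (log2 difference 2.19, standard error 0.46, adjusted p = 0.0171). Zwint, a kinetochore scaffold, was the most abundant of the list at 13.6 to 24.3 FPKM, and its log2 difference of 0.13 (adjusted p = 0.670) turned to -0.09 with median scaling, to -0.02 with quantile normalization and to -0.04 without FL5. Of the list, 28 genes were called without FL2 (against 12.3% of all genes) and 5 without CL6 (6.7%). Without CL7 or FL12, 2 were called (4.95% and 6.5%), and without CL5 or FL5 1 (6.25% and 5.06%). The 28 include 5 with a CL mean below 0.1 FPKM. Median scaling gave 6 calls (5.56% of all genes), quantile normalization 2 (3.05%), a pseudocount of 1 gave 3 (3.11%) and the filter at 1 FPKM 4 (8.11%).

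Protein complexes of mitosis whose subunits serve the cell at other times as well were also read, beside the 9.29% of all genes called higher and the 31.5% higher at an unadjusted p under 0.05. Of 15 other genes listed for the centromere and kinetochore (Cenpj by its name only), 0 were called by limma. Among the 15, 6 had an unadjusted p under 0.05 (Cenpj included), all higher in the FL group, and the median log2 difference of the 15 was 0.47. Of these, Cenpb also had an adjusted p under 0.05 (0.0216), and its log2 difference of 0.79 was under the fold limit. Without FL2, 4 of the 15 were called (against 12.3% of all genes), and without CL6 1 (against 6.7%). Cenpv, the most abundant, read 8.42 to 13.7 FPKM over the 6 rats, with a log2 difference of -0.08 (adjusted p = 0.783) that became 0.08 without FL5. Of 15 genes of the anaphase-promoting complex (its subunits and the activator Fzr1), 0 were called, and 0 were called with any rat left out. Among the 15, 8 had an unadjusted p under 0.05 (Fzr1 included), all higher (median of the 15, 0.46). Of these, Anapc1, Anapc2, Anapc4, Anapc13 and Anapc15 also had an adjusted p under 0.05 (0.0133 to 0.0385). They were not called because their log2 differences, 0.50 to 0.74, were under the fold limit. Its most abundant gene, Anapc5, read 21.4 ± 2.33 and 26.6 ± 4.0 FPKM in the CL and FL groups (SD, n = 3 rats each).

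Of 16 subunits of condensin, which compacts chromosomes, and of cohesin, which ties sister chromatids, 2 condensin genes were upregulated (median 0.39), against 9.29% of all genes. Ncapd2 read 1.09 FPKM in CL5, 1.27 in CL6 and 0.99 in CL7, and 2.09 in FL2, 2.69 in FL5 and 2.71 FPKM in FL12, a log2 difference of 1.09 (standard error 0.19, adjusted p = 0.00967). Smc4 read 1.38, 1.96 and 1.87 FPKM among the CL rats and 3.04 in FL2, 4.76 in FL5 and 4.90 FPKM in FL12, one of 1.22 (standard error 0.23, adjusted p = 0.0121). In both, FL2 was above every CL rat. Rad21, a cohesin subunit and the most abundant gene, read 12.6 to 17.0 FPKM with a log2 difference of 0.17 (adjusted p = 0.355), which was -0.05 with median scaling and -0.01 with quantile normalization. Without FL2 5 genes of the list were called (12.3% of all genes), and without FL5 1 (5.06%). Median scaling gave 1 call (5.56%), and limma gave 0 with quantile normalization (3.05%) or a pseudocount of 1 (3.11%).

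Kinesin genes not listed for mitosis, named transport kinesins here, were set beside the mitotic motors. Of 20 tested, 5 were upregulated (Kif12, Kifc3, Kif21b, Kif3c and Kif7), against 9.29% of all genes, and the median log2 difference was 0.30, near the 0.29 of all genes. Kif12 read 0.29 FPKM in CL5, 0.38 in CL6 and 0.41 in CL7, and 2.36 in FL2, 1.62 in FL5 and 2.53 FPKM in FL12, with a log2 difference of 2.29 (standard error 0.25, adjusted p = 0.00262). FL2 was as high as the other FL rats. Kifc3 read 1.27 ± 0.201 and 4.21 ± 1.15 FPKM in the CL and FL groups (log2 difference 1.63, adjusted p = 0.00519), and the most abundant gene, Kif1c, 16.7 ± 2.19 and 17.3 ± 2.67 FPKM. The log2 difference of Kif1c, 0.05, was -0.18 with median scaling, -0.12 with quantile normalization, -0.05 without CL7 and -0.06 without FL12. The 5 calls became 6 without FL2 (12.3% of all genes) and 2 without CL5, CL6 or FL5 (6.25%, 6.7% and 5.06%). They were 3 without CL7 or FL12 (4.95% and 6.5%) and 3 with median scaling (5.56%). With quantile normalization, a pseudocount of 1 or the filter at 1 FPKM they were 2 (3.05%, 3.11% and 8.11%).

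Of 30 DNA replication genes, which act in the S phase before mitosis, 7 were upregulated, against 9.29% of all genes, and the median log2 difference was 0.75, against 0.29. Mcm5, a subunit of the replicative helicase, read 0.25 FPKM in CL5, 0.39 in CL6 and 0.19 in CL7, and 0.78 in FL2, 1.86 in FL5 and 2.50 FPKM in FL12 (log2 difference 2.16, standard error 0.42, adjusted p = 0.0136). Mcm2, of the same helicase, had a log2 difference of 1.22 (standard error 0.28, adjusted p = 0.0224) from 1.20 ± 0.167 to 3.05 ± 1.05 FPKM. In both, FL2 was between the CL rats and the other FL rats. Over the list, the mean of log2(FPKM + 0.1) stood 0.33 above the CL mean in FL2, 1.09 in FL5 and 1.34 in FL12. Tk1, the thymidine kinase of the nucleotide salvage pathway, was the most abundant, with 2.74 FPKM in CL5, 3.97 in CL6 and 2.99 in CL7, and 3.44 in FL2, 20.0 in FL5 and 11.9 FPKM in FL12. FL2 lay within the CL range, and the log2 difference of 1.53 (standard error 0.55, adjusted p = 0.0896) was not called. The 7 calls became 13 without FL2 (12.3% of all genes), 2 without CL6 (6.7%) and 1 without CL5 or FL12 (6.25% and 6.5%). Without CL7 or FL5 limma gave 0 (4.95% and 5.06%). Median scaling or no filter gave 3 (5.56% and 6.32%), and the filter at 1 FPKM or limma without trend 4 (8.11% and 8.83%). Quantile normalization or a pseudocount of 1 gave 1 (3.05% and 3.11%).

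Of 23 cell cycle inhibitors and members of the DREAM and MuvB complexes, 3 were upregulated (Cdkn2c, Mybl2 and Pkmyt1), against 9.29% of all genes, and the median log2 difference was 0.59. Cdkn2c, an inhibitor of the G1 kinases Cdk4 and Cdk6, read 0.40 FPKM in CL5, 0.14 in CL6 and 0.19 in CL7, and 1.37 in FL2, 1.18 in FL5 and 1.09 FPKM in FL12 (log2 difference 2.0, standard error 0.33, adjusted p = 0.00792), with FL2 the highest. Mybl2, which encodes B-Myb, an activator that works with the DREAM core, read 0.05, 0.11 and 0.06 FPKM among the CL rats and 0.28 in FL2, 0.43 in FL5 and 0.76 FPKM in FL12 (log2 difference 1.70, standard error 0.41, adjusted p = 0.0278). Its CL mean was below 0.1 FPKM, so that it passed the filter through the FL group. Cdkn1a, the p53 target p21 that stops Cdk activity, read 5.29, 13.1 and 16.5 FPKM among the CL rats and 3.18 in FL2, 10.5 in FL5 and 8.85 FPKM in FL12. The groups overlapped, with FL2 the lowest of all 6 rats, and the log2 difference of Cdkn1a was -0.64 (standard error 0.52, adjusted p = 0.411). The most abundant gene, Gadd45a, read 7.49 to 20.7 FPKM with a log2 difference of 0.04 (adjusted p = 0.949), which was -0.19 with median scaling, -0.15 with quantile normalization, -0.37 without CL5 and -0.15 without FL5. The 3 calls became 6 without FL2 (12.3% of all genes) and 2 without CL6 (6.7%). They were 1 without CL5, CL7, FL5 or FL12 (6.25%, 4.95%, 5.06% and 6.5%). Quantile normalization gave 1 (3.05%), and limma gave 0 with a pseudocount of 1 (3.11%) or the filter at 1 FPKM (8.11%). Without CL5, 1 gene of the list was also called lower, Gadd45g, a stress-induced inhibitor of Cdk1 singled out after its values were seen. It read 2.14, 26.4 and 38.2 FPKM among the CL rats and 3.44 in FL2, 2.24 in FL5 and 3.16 FPKM in FL12, so that CL5 was the lowest of all rats. Over all 6 rats the log2 difference was -2.13 (standard error 0.93, adjusted p = 0.142, and 0.00279 to 0.379 over the alternatives).

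Markers of the cells of the liver were read in the same rats, and their part in the levels of the mitosis genes was not tested. Of 9 stellate cell and myofibroblast markers, 4 were upregulated (Des, Col3a1, Col1a1 and Pdgfrb), against 9.29% of all genes. The median log2 difference of the 9 was 1.50, against 0.29 over all genes. The summed FPKM of the 10 found in the expression table, 9 of them tested, was 80.9, 89.6 and 80.9 in CL5, CL6 and CL7. It was 198, 540 and 489 in FL2, FL5 and FL12. In this sum, most of it Col3a1, FL2 thus lay between the CL rats and the other FL rats. Marker by marker, FL2 was above all CL rats for 6 of the 9 (49.2% of all genes). It lay within the CL range for 2 (Timp1 and Lox) and below it for Lrat. Timp1, Lox and Lrat, singled out after their values were seen, had log2 differences of 1.29, 0.98 and -0.07. Col3a1 was the most abundant (49.0 ± 2.65 and 274 ± 115 FPKM, log2 difference 2.37, adjusted p = 0.00490), and Des had a log2 difference of 2.28 (adjusted p = 0.00394). Without FL2, 6 of the 9 markers were called, against 12.3% of all genes. Of 10 macrophage markers, 5 were upregulated (Gpnmb, Trem2, Cd68, Csf1r and Marco), against 9.29% of all genes, and the median of the 10 was 0.93. Their sum was 124, 125 and 125 FPKM among the CL rats and 313 in FL2, 374 in FL5 and 238 FPKM in FL12. FL2 was above FL12 in this sum and for 7 of the 10 markers, among them Marco (79.0 and 31.5 FPKM) and Clec4f (66.6 and 26.3 FPKM), and below it for Gpnmb (64.7 and 92.9 FPKM), Trem2 (2.30 and 4.76 FPKM) and Mrc1 (16.2 and 16.5 FPKM), genes singled out after their values were seen. Gpnmb, the most abundant by the mean of all 6 rats, read 4.0 ± 0.314 and 101 ± 40.3 FPKM (log2 difference 4.54, adjusted p = 0.000364), and Trem2, with a CL mean below 0.1 FPKM, had a log2 difference of 4.46 (adjusted p = 0.00102). Clec4f was the most abundant in the CL group, with 47.2 ± 3.52 and 50.1 ± 21.1 FPKM (log2 difference -0.02, adjusted p = 0.974). For Cd14 the log2 difference was -0.70 (adjusted p = 0.237).

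**Figure D2:**
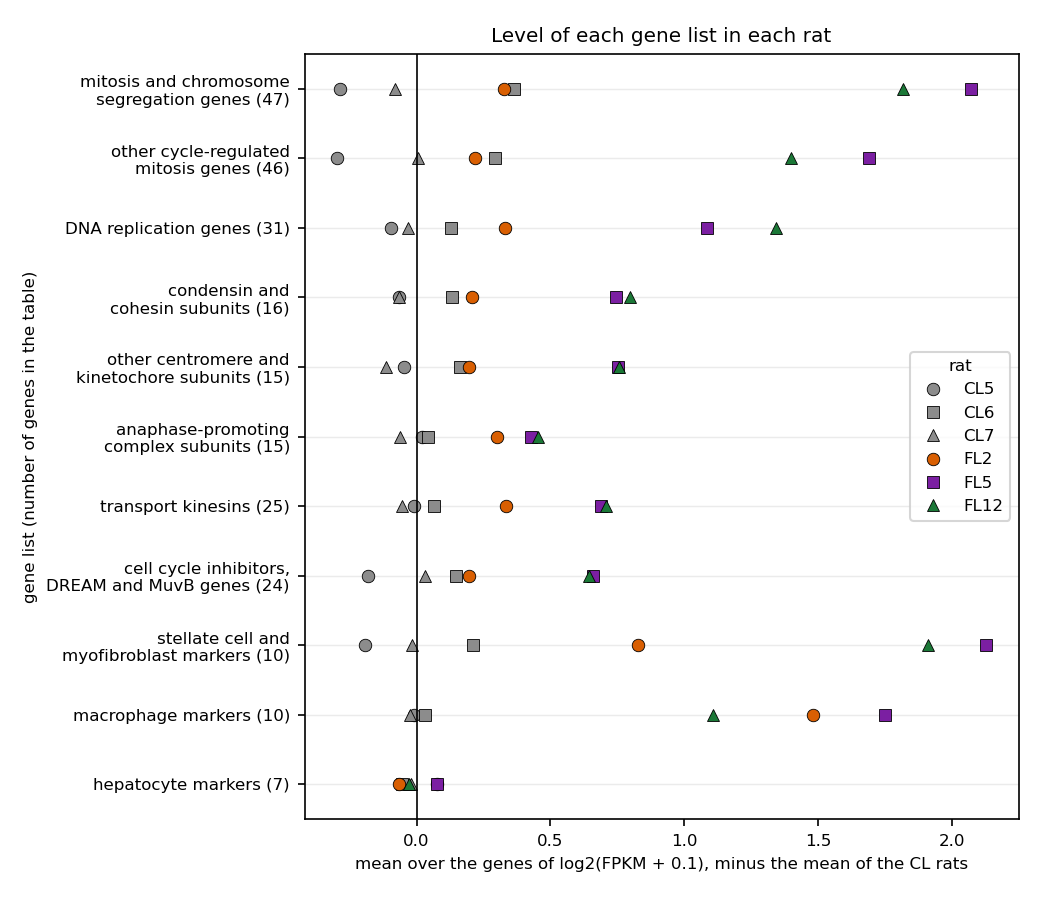
Mean of log2(FPKM + 0.1) over the genes of each list (rows) in each rat, minus the mean of the CL rats. Grey symbols are CL rats and coloured symbols FL rats, with 1 symbol per rat. For the mitosis genes FL2 stands at 0.33 beside CL6, with FL5 at 2.07 and FL12 at 1.82, whereas for the macrophage markers FL2 stands at 1.48 between FL12 at 1.11 and FL5 at 1.75.

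Hepatocyte markers gave 0 calls of 7 in limma, against 9.29% of all genes called higher. Of the 7, 2 had an unadjusted p under 0.05, both higher (against 31.5% of all genes), and 1 was called without FL2 (against 12.3%). Their median log2 difference was -0.21, and their sum, most of it Alb, was 44426, 42114 and 42582 FPKM among the CL rats and 33297 in FL2, 35235 in FL5 and 34556 FPKM in FL12. The log2 difference of Alb was -0.38 (adjusted p = 0.804, and 0.0789 to 0.952 over the alternatives), without overlap of the groups. With quantile normalization this difference was 0.49. The list was mixed, with a log2 difference above 0 for 3 of the 7 markers. Apoa1 (0.73) and Tat (0.80), singled out after their values were seen, had the unadjusted p under 0.05. Every FL rat was above every CL rat for Apoa1, and below every CL rat for 3 markers (Alb, Ttr and Hnf4a). The group difference of the per-rat mean of log2(FPKM + 0.1) over the list was -0.00586. Of 7 cholangiocyte markers, 1 was upregulated, against 9.29% of all genes. This was Spp1, which read 0.37, 2.81 and 0.74 FPKM among the CL rats and 7.34 in FL2, 60.6 in FL5 and 31.1 FPKM in FL12 (log2 difference 4.53, adjusted p = 0.0119). Spp1 encodes osteopontin, which macrophages and other cells of the liver also make. Without CL7 limma called 0 of these 7 (against 4.95% of all genes), and without FL2 2 (against 12.3%). The sum of the 8 cholangiocyte markers found in the expression table, 7 of them tested, was 6.04, 10.8 and 6.44 FPKM among the CL rats. It was 13 in FL2, 69.0 in FL5 and 43.2 FPKM in FL12. Without Spp1 this sum, most of it Epcam, was 5.67, 7.97 and 5.70 FPKM among the CL rats. It was 5.65 in FL2, 8.44 in FL5 and 12.1 FPKM in FL12, with FL2 level with CL5 and CL7. Of the 6 markers tested other than Spp1, 0 were called by limma.

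Of 7 endothelial markers, Vwf was upregulated (2.63 ± 0.292 and 5.74 ± 1.88 FPKM, log2 difference 1.05, adjusted p = 0.0256), against 9.29% of all genes. Vwf was called without FL2 (12.3% of all genes) but not without any other rat. The most abundant, Kdr, had a log2 difference of -0.21 (adjusted p = 0.354), and the sum of the list was 68.5 to 78.6 FPKM in the CL group and 94 in FL2, 79.7 in FL5 and 88.2 FPKM in FL12. Of 7 lymphocyte markers, 2 were upregulated, against 9.29% of all genes. They were Cd4 (8.81 ± 0.973 and 21.1 ± 2.85 FPKM, log2 difference 1.25, adjusted p = 0.00308) and Cd2 (log2 difference 1.39, adjusted p = 0.0233). This count was 1 without CL5, CL6 or FL5 (6.25%, 6.7% and 5.06% of all genes), and 3 without FL12 (6.5%). The sum of the 10 lymphocyte markers found in the expression table, 7 of them tested, was 10.1 to 12.3 FPKM in the CL group. It was 23.1 in FL2, 30.3 in FL5 and 23.9 FPKM in FL12. Most of this sum was Cd4, which macrophages of the rat also make. Without Cd4 the sum was 2.33, 1.86 and 2.79 FPKM among the CL rats and 4.89 in FL2, 6.41 in FL5 and 2.57 FPKM in FL12. The T cell genes Cd3e and Cd3d had log2 differences of 0.47 and 0.24 (adjusted p = 0.440 and 0.783). Markers of erythroid and haematopoietic precursors gave 0 calls of 5 in limma, against 9.29% of all genes higher and 0.935% lower. At an unadjusted p under 0.05, 1 was higher and 1 lower, against 31.5% and 4.04% of all genes. Without FL2, 1 was called higher (Cd34) and 3 were called lower (Alas2, Hba1 and Hbb), against 12.3% of all genes higher and 1.08% lower. Their most abundant gene, Hbb, had a log2 difference of -0.88 (adjusted p = 0.0752). The sum of the 9 precursor markers found in the expression table, 5 of them tested, was 88.7, 154 and 110 FPKM among the CL rats. It was 123 in FL2, 47.3 in FL5 and 49.8 FPKM in FL12. FL2 lay within the CL range of this sum and FL5 and FL12 below it, and the part of these cells in the mitosis genes was not tested.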

How the data were processed

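Rat liver RNA was sequenced with 1 library per rat (3 CL, 3 FL). The authors aligned trimmed reads with TopHat2, counted uniquely placed reads per gene and deposited FPKM with 2 decimals. The submitters' notes name GRCh38, whereas the gene identifiers are Ensembl's for the rat, so gene coordinates of the table were not used. In the same table, 2 columns of values carried the name of no sample and were not used. Groups came from the sample labels. Differences of log2(FPKM + 0.1) were tested with limma 3.58.1 (R 4.3.3, with a prior variance that depends on expression) in 14864 genes, those averaging 0.1 FPKM or more, with Benjamini-Hochberg adjustment over all of them, and all adjusted p-values in the text are limma's. For median scaling, the size of a library was the median, over genes above 1 FPKM in every rat, of its FPKM over the geometric mean. The procedure was tested on simulated data. Alternatives were other pseudocounts and filters, 2 scalings, other priors, no fold limit, and each rat left out. Per-rat values are given for called members and, in each role, for the most abundant member (by the mean of the 6 rats, here and for other lists) and the uncalled one with the largest difference. Of other lists, the 2 called genes with the lowest adjusted p and the most abundant gene are given. Mki67, Top2a, Cdk1, Ccnb1, Foxm1 and Cdkn1a were named in any case, and further called genes of a list of at most 5 after their values were seen. The members and lists were chosen with earlier results of these data known. Python 3.11.15, numpy 2.4.6, pandas 2.3.3 and matplotlib 3.10.9 were used.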

Additional observations from a re-analysis of the deposited data

How the results depend on the processing

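The groups held 3 rats each, taken from animals divided at random, so the design has no pairs. CL5 and FL5 are different animals, and their shared number does not pair them. The values have 2 decimals and the read counts are not known. Genes called between the groups numbered 1520, and 534 with a pseudocount of 1, 948 with the filter at 1 FPKM, 1007 with median scaling, 684 with quantile normalization, 2806 with no fold limit and 821 to 1991 with a rat left out. Of the mitosis genes 13 were called higher, and 4 with a pseudocount of 1, 7 with no filter, 6 with the filter at 1 FPKM, 7 with median scaling, 1 with quantile normalization, 7 with limma without trend and 1 to 40 with a rat left out. The group difference of their per-rat mean, 1.40, was 0.67 with a pseudocount of 1. The cause of the low values of FL2 was not tested.

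Some log2 differences changed sign. Mad2l1 (0.24) was -0.32 with quantile normalization and -0.14 to 0.73 with a rat left out. Alb (-0.38) was 0.49 with quantile normalization. Rad21 (0.17) was -0.0525 with median scaling and -0.00543 with quantile normalization. Gadd45a (0.04) was -0.19 with median scaling, -0.15 with quantile normalization and -0.37 to 0.35 with a rat left out. Kif1c (0.05) was -0.18, -0.12 and -0.0590 to 0.16 in the same order, and Zwint (0.13) -0.0895, -0.0211 and -0.0419 to 0.37. Cenpv (-0.08) was -0.27 to 0.0789 with a rat left out.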
